A study of Mus musculus with 20 samples.

Results

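RAW264.7 cells that received RANKL and the BET inhibitor I-BET together were compared between hour 4 and hour 14 of treatment. The 4 libraries were chosen by their labels alone, 2 at hour 4 and 2 at hour 14, out of 20 in the series. RAW264.7 is an established mouse cell line that the labels describe as derived from monocytes, although they also name bone marrow as the source, and that is widely used as a macrophage line able to form osteoclasts. Both groups received 50 ng per ml RANKL and 500 nM I-BET, so they differ in time only. The comparison courses were 4 libraries of cells given the same dose of RANKL alone and 4 of cells given the same dose of I-BET alone, each with 2 at hour 4 and 2 at hour 14. Untreated cells were sampled at hour 0 only, so the length of treatment and the time in culture cannot be told apart. The labels do not say whether the 2 libraries of a group came from separate cultures. The p-values thus measure the spread between libraries of the same group, pooled over all 20 libraries, which may be technical.

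RANKL is the cytokine that turns macrophage precursors into bone-resorbing osteoclasts. It acts through its receptor RANK and through NF-kB and AP-1 factors, which lead to the transcription factor NFATc1 and then to genes for acid secretion, bone matrix digestion and cell fusion. BET proteins are chromatin readers that bind acetylated histones through bromodomains and help RNA polymerase II to leave the promoter, and I-BET compounds occupy those bromodomains. Genes with strong enhancers and short-lived messages, such as Myc and many inflammatory genes, are known to be sensitive to them.

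Polyadenylated RNA was sequenced in paired reads, and the authors' read counts per gene were used. The 2 libraries at hour 4 held 51708091 and 42039049 counts and those at hour 14 held 27032294 and 42999279, within the 19051780 to 62313792 of all 20 libraries. Mitochondrial genes took 3.33% to 5.57% of the counts in these 4 libraries. Of 30 macrophage genes in the authors' RPKM table, 21 were at 1 RPKM or more in all 4 libraries. Markers of non-myeloid cells did not reach 1 RPKM in all 4 libraries for any of 28 genes, 17 were at 0 throughout, and their summed level was 0.441 to 1.49 RPKM. Among markers of other myeloid cells 8 of 19 were at 0 throughout, and the summed level was 0.468 to 1.19 RPKM. Levels below are CPM, counts scaled to library size by TMM factors, with library 1 named before library 2. Changes are log2 fold changes of hour 14 against hour 4 with their standard error (SE, n = 2 libraries per group). The SE was derived from the edgeR test, whose spread is pooled over all 20 libraries, and is not the spread of the compared libraries alone. A gene was called at an edgeR adjusted p under 0.05.

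Between hours 4 and 14, 1508 of 16042 tested genes (9.4%) changed. Of these, 739 rose (4.61% of tested genes) and 769 fell (4.79%). The rises were small and the falls larger: the median size was 0.53 for called rises and 0.98 for called falls on the log2 scale, and 71 rises (9.61%) against 379 falls (49.3%) exceeded 2-fold. Over all tested genes the median change was -0.05. In these bulk libraries fewer cells of a kind and less RNA per cell cannot be told apart. In every called gene the 2 groups of libraries did not overlap, which also held for 20.3% of tested genes with the higher level at hour 14 and 25.9% with the lower. Among the lists examined, called rises were most frequent in DNA replication and mitosis, and called falls in the interferon response, macrophage identity, NF-kB targets and osteoclast genes. The number of calls depended on each library. Without hour 4 library 1 there were 380 rises and 424 falls, and without hour 4 library 2 there were 324 and 445. Without hour 14 library 1 there were 337 and 343, and without hour 14 library 2 there were 277 and 316. Counts for gene lists with 1 library left out are given below in this order. With the library number as a block, since libraries of the same number deviated together, 2220 of the 16042 tested genes rose and 1976 fell, and all 1508 calls were among them. These larger shares, and not 4.61% and 4.79%, are the background for list counts with the block.

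**Figure D1:**
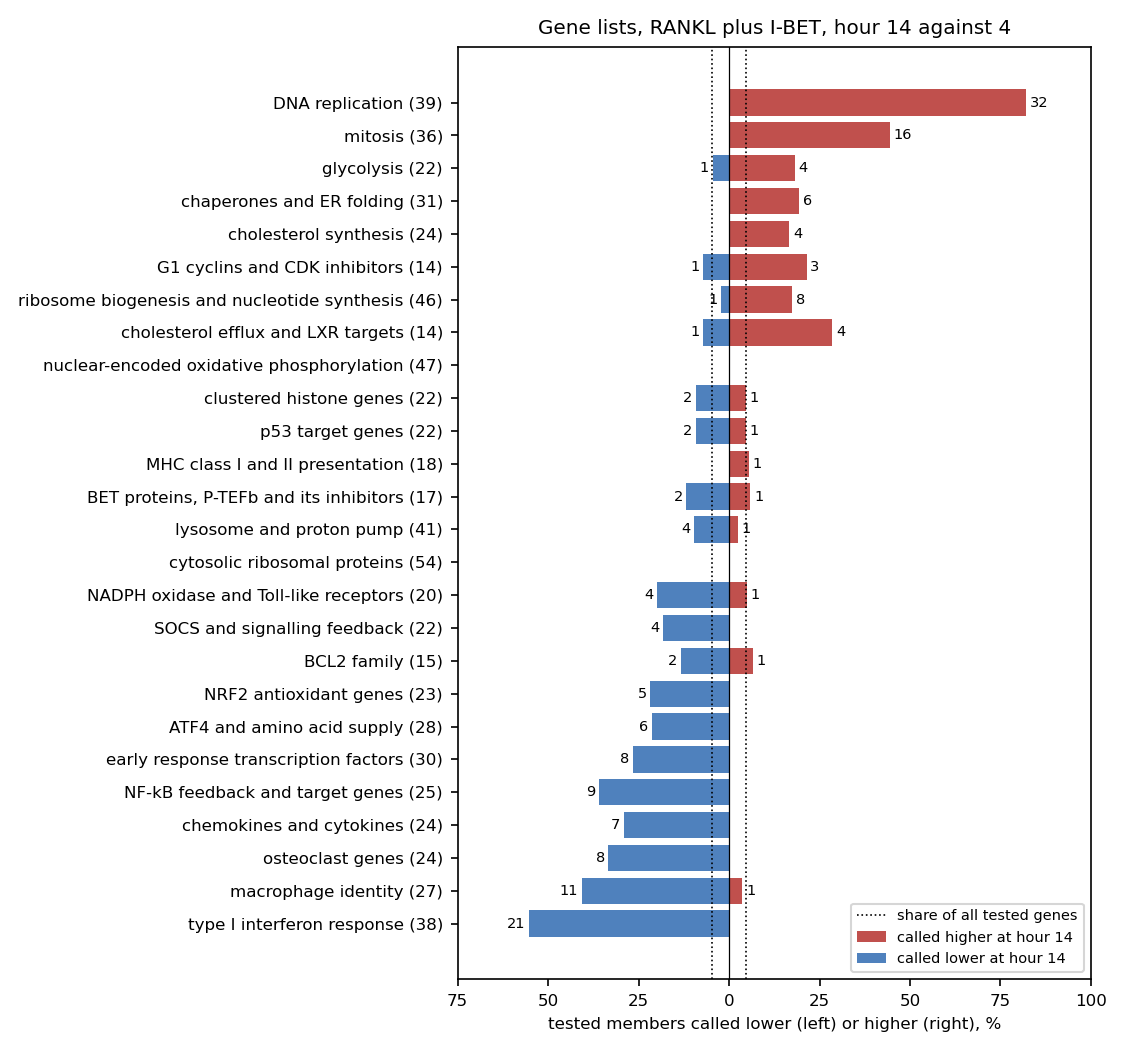
Share of the tested members of 26 gene lists that were called higher (right) or lower (left) at hour 14 than at hour 4 in cells given RANKL plus I-BET. Bars carry the number of called members, brackets the number tested, the dotted lines mark 4.61% and 4.79% of all tested genes, and lists are ordered by their median log2 fold change; DNA replication (32 of 39 higher) and the interferon response (21 of 38 lower) stand at the ends.

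Among called genes with a mean of at least 5 CPM and no overlap between the times, predicted gene models left out, the largest rises included genes of lipid and amino acid metabolism. Scd2, a desaturase that makes monounsaturated fatty acids, was at 321 and 361 CPM at hour 4 and 985 and 1449 at hour 14, a change of 1.84 ± 0.21 (SE; adjusted p = 0.00013). Both hour 14 libraries lay well above both hour 4 libraries. Abcg1, which exports cholesterol from macrophages, was at 29.6 and 46.9 CPM at hour 4 and 112 and 147 at hour 14 (1.76 ± 0.29; adjusted p = 0.00172). Lpin1, a phosphatidate phosphatase of triglyceride synthesis, was at 3 and 2.55 CPM at hour 4 and 8.97 and 9.24 at hour 14 (1.71 ± 0.26; adjusted p = 0.000984). Acy1, an enzyme that removes acetyl groups from amino acids, was at 12.4 and 14.3 CPM at hour 4 and 46.5 and 44.2 at hour 14 (1.76 ± 0.15; adjusted p = 1.24e-05). The 2 libraries of each time were nearly equal for Lpin1 and Acy1. Ltb, the lymphotoxin beta chain of the TNF family, was at 2.62 and 5.7 CPM at hour 4 and 10.1 and 17.2 at hour 14 and rose by 1.73 ± 0.40 (adjusted p = 0.0149). Library 2 held more Ltb than library 1 at both times, and the call was lost without hour 4 library 1 (adjusted p = 0.141) or hour 14 library 2 (0.17). Vsig10, an immunoglobulin-domain protein, rose by 1.62 ± 0.24, and Dock9, an exchange factor for the GTPase CDC42, rose by 1.38 ± 0.19. Myh7b, a myosin heavy chain, rose by 1.31 ± 0.28 and lost its call without hour 4 library 1 (0.1) or hour 14 library 2 (0.106). Levels at hour 24 under the same treatment, given side by side, were 1752 and 1974 CPM for Scd2, 225 and 212 CPM for Abcg1, 61 and 56.4 CPM for Acy1 and 28 and 23.6 CPM for Vsig10. In untreated cells at hour 0 the levels were 1125 and 1229 CPM for Scd2, 96.5 and 95.8 for Abcg1, 12.9 and 10.4 for Acy1 and 9.63 and 11 for Vsig10. Scd2 and Abcg1 were thus lower at hour 4 than at hour 0, a change not tested here. Scd2 (1.93 and 1.57), Abcg1 (1.585 and 1.775) and Acy1 (2.72 and 1.41) also rose under RANKL alone and I-BET alone, and Vsig10 was called in neither.

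By the same choice the largest falls included secreted and surface proteins of macrophages. Olr1, a scavenger receptor for oxidised LDL, was at 116 and 32.7 CPM at hour 4 and 1.5 and 0.722 at hour 14 (-6.12 ± 1.05; adjusted p = 0.00232). Library 1 held more Olr1 than library 2 at both times, and neither hour 14 library came near the hour 4 libraries. Rgs16, which shortens G-protein signalling, was at 16.2 and 7.56 CPM at hour 4 and 0.696 and 0.289 at hour 14 (-4.69 ± 0.62; adjusted p = 0.000388). Igf1, a growth factor, was at 37 and 32.8 CPM at hour 4 and 2.01 and 2.09 at hour 14 (-4.08 ± 0.25; adjusted p = 2.26e-06). The replicates of Igf1 were close at both times. Angptl2, a secreted angiopoietin-like protein, fell by 3.62 ± 0.45, and Olfml3, a secreted olfactomedin-domain protein, fell by 3.60 ± 0.27. Cxcl2, a neutrophil chemokine, was at 9.34 and 12.5 CPM at hour 4 and 1.02 and 0.939 at hour 14 (-3.48 ± 0.47; adjusted p = 0.000438). Irg1, which makes itaconate in activated macrophages, was at 23.6 and 20.3 CPM at hour 4 and 2.78 and 2.09 at hour 14 (-3.19 ± 0.32; adjusted p = 5.4e-05). That the times do not overlap in these genes is part of how they were chosen. At hour 24 Igf1 stood at 0.305 and 0.557 CPM and Olfml3 at 0.224 and 0.353 CPM. Olr1 (-3.98 and -4.57), Igf1 (-2.91 and -3.52), Angptl2 (-1.73 and -3.47) and Olfml3 (-2.23 and -2.94) also fell under RANKL alone and I-BET alone. Cxcl2 (-4.43) and Irg1 (-3.985) were called lower under RANKL alone and not under I-BET alone. Rgs16 (-4.24) was called lower under I-BET alone and not under RANKL alone.

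**Figure D2:**
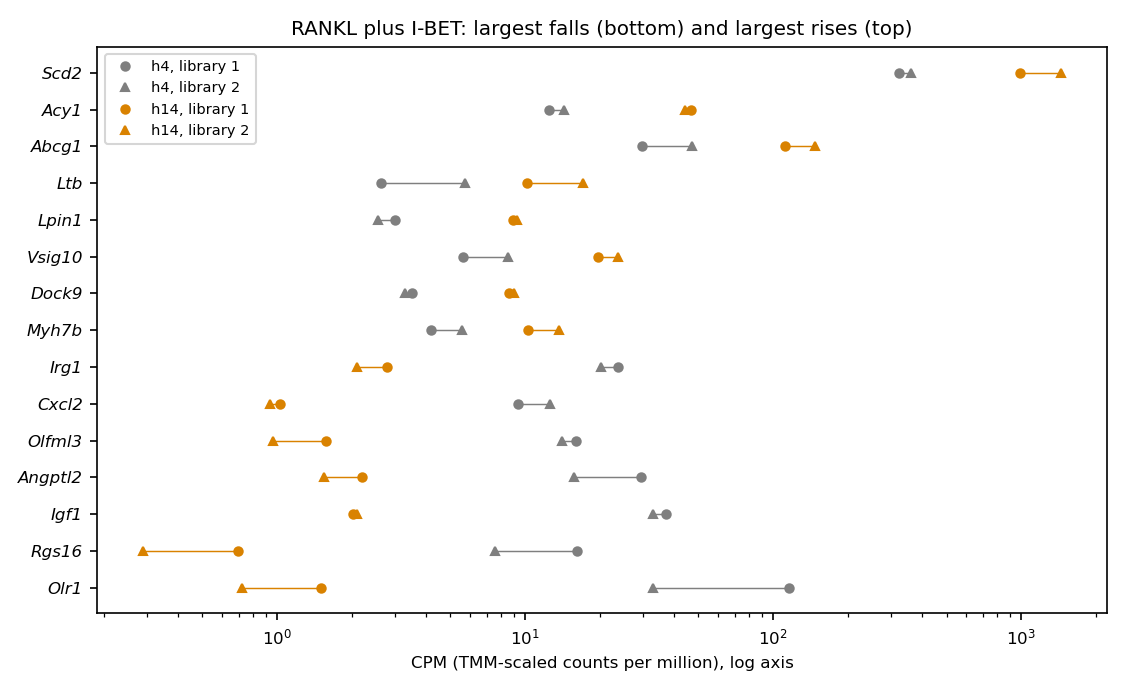
CPM (log axis) in the 2 libraries at hour 4 (grey) and the 2 at hour 14 (orange) for 7 genes among the 8 largest called falls (lower rows) and the 8 with the largest called rises (upper rows), circles for library 1 and triangles for library 2. Genes were chosen so that grey and orange points do not overlap; Olr1 fell from 116 and 32.7 CPM to 1.5 and 0.722, and Scd2 rose from 321 and 361 CPM to 985 and 1449.

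Osteoclast genes fell in part. Of 24 tested members, 8 fell and 0 rose, and the median change was -0.63 against -0.05 over all genes. Acp5, the tartrate-resistant acid phosphatase used as the standard osteoclast stain, was at 21.1 and 13.7 CPM at hour 4 and 4.65 and 2.65 at hour 14 (-2.28 ± 0.45; adjusted p = 0.00606). Ctsk, cathepsin K, which digests bone collagen, was at 15.6 and 17.8 CPM at hour 4 and 5.27 and 4.67 at hour 14 (-1.75 ± 0.18; adjusted p = 5.4e-05). Atp6v0d2, a proton pump subunit needed for precursor fusion, was at 21.6 and 9.8 CPM at hour 4 and 3.66 and 1.71 at hour 14 (-2.59 ± 0.68; adjusted p = 0.0287). Ocstamp, a fusion protein, was at 4.47 and 6.27 CPM at hour 4 and 1.21 and 0.987 at hour 14 (-2.30 ± 0.32; adjusted p = 0.000534). In each of these genes both hour 4 libraries lay above both hour 14 libraries, and library 1 was the higher at both times for Acp5 and Atp6v0d2. Untreated cells at hour 0 held 36 and 17.5 CPM of Acp5, 21.3 and 20.5 of Ctsk, 44 and 21.2 of Atp6v0d2 and 10.35 and 6.19 of Ocstamp. Each of these libraries exceeded the hour 4 library of the same number, except library 2 for Ocstamp. The change from hour 0 was not tested. The remaining called members were the AP-1 factors Fosl1 (-1.34 ± 0.29), Fos (-1.17 ± 0.28) and Jdp2 (-0.96 ± 0.18) and the tetraspanin Cd9 (-0.55 ± 0.10).

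Other regulators and effectors of the osteoclast program were not called. Nfatc1, the central transcription factor of the program, was at 424 and 234 CPM at hour 4 and 170.4 and 109 at hour 14 (-1.24 ± 0.38; adjusted p = 0.0567), and its lower hour 4 library lay above both hour 14 libraries. With the library number as a block Nfatc1 was called (adjusted p = 2.21e-06), as it was with DESeq2 (0.00939). With no low-count filter edgeR gave an adjusted p of 2.43e-15 at almost the same change (-1.23). So small a value from 2 uneven libraries per group depends on how that setting estimates the spread. It is not read here as stronger evidence. Without hour 4 library 2 the change of Nfatc1 was -1.60. Untreated cells at hour 0 held 600 and 342 CPM of Nfatc1, in each library number above hour 4. Tnfrsf11a, which encodes the receptor RANK, was at 208 and 150 CPM at hour 4 and 161 and 98.1 at hour 14 (-0.47 ± 0.39; adjusted p = 0.564, and 0.000891 with the block). Dcstamp, a fusion receptor, was at 6.14 and 6.27 CPM at hour 4 and 6.81 and 4.24 at hour 14 (-0.18 ± 0.30; adjusted p = 0.816), with overlapping libraries. Mmp9, a matrix metalloproteinase of osteoclasts, gave 8 counts at hour 4 and 22 at hour 14 over the 2 libraries of each time (1.92 ± 0.82; adjusted p = 0.19). DESeq2 (adjusted p = 0.0423) and edgeR with no low-count filter (0.0133) called Mmp9 higher. With 1 library left out the number of falling osteoclast genes was 5, 8, 7 and 3, and with the block 13 fell and 2 rose. Acp5 lost its call without hour 14 library 2 (adjusted p = 0.0938). Atp6v0d2 lost it without hour 4 library 1 (0.193), hour 14 library 1 (0.0758) or hour 14 library 2 (0.249), and Fos without hour 4 library 1 (0.0769), hour 4 library 2 (0.064) or hour 14 library 2 (0.19).

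Among BET proteins and the partners of the elongation factor P-TEFb, 2 of 17 tested members fell and 1 rose (median -0.06). Brd2, a BET protein and thus a target of the drug, was at 1009 and 932 CPM at hour 4 and 654 and 611 at hour 14 (-0.62 ± 0.08; adjusted p = 0.000322). The replicates of Brd2 were close and the 2 times were well apart. Brdt, the BET protein known from the testis, was at 3.76 and 2.62 CPM at hour 4 and 1.14 and 1.23 at hour 14 (-1.43 ± 0.24; adjusted p = 0.0018). Larp7, a component of the 7SK complex that restrains P-TEFb, rose by 0.32 ± 0.08. Hexim1, the inhibitor of P-TEFb whose message is a common readout of BET inhibition, was at 142 and 181 CPM at hour 4 and 102 and 133 at hour 14 (-0.46 ± 0.20; adjusted p = 0.188); within each library number it was lower at hour 14, and it was called with the block (6.81e-05). Bcl6, a transcriptional repressor, was at 37.8 and 29.3 CPM at hour 4 and 28.5 and 24.9 at hour 14 (-0.33 ± 0.17; adjusted p = 0.289, and 0.0262 with the block). Hours 4 and 14 did not overlap for Bcl6. With the block 5 members fell and 3 rose. In untreated cells at hour 0 Hexim1 was at 57.9 and 70.3 CPM and Brd2 at 315 and 312. Both genes were thus still higher at hour 14 under both agents than at hour 0. Brdt (2.54 and 2.4 CPM at hour 0) and Bcl6 (56.1 and 44.2) were lower at hour 14 than at hour 0. These changes from hour 0 were not tested.

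Early response transcription factors fell in part, with 8 of 30 tested members called lower and 0 higher (median -0.45). Myc, a driver of growth and ribosome synthesis, was low at both times, at 5.84 and 4.84 CPM at hour 4 and 1.94 and 0.746 at hour 14, against 192 and 151 CPM at hour 4 and 236 and 233 at hour 14 in cells given RANKL alone. Its change under both agents was -2.07 ± 0.40 (adjusted p = 0.00476), and hour 14 library 2 was the lowest of the 4. Fos stood at 136 and 131 CPM at hour 4 and 71.3 and 47.4 at hour 14 (adjusted p = 0.0182). Dusp5, a phosphatase that inactivates ERK, was at 8.59 and 8.34 CPM at hour 4 and 3 and 2.48 at hour 14 (-1.63 ± 0.33; adjusted p = 0.00662). Both times were separate in these 3 genes. Fosb (-1.58 ± 0.46), Fosl1 (-1.34 ± 0.29) and Junb (-0.95 ± 0.25), further AP-1 members, Dusp1 (-0.74 ± 0.15), a MAP kinase phosphatase, and Zfp36 (-0.71 ± 0.21), which destabilises cytokine messages, made up the rest. With 1 library left out the count was 4, 4, 5 and 0, and with the block 13. Without hour 14 library 2 no member was called (adjusted p = 0.0815 for Myc, 0.0869 for Dusp5 and 0.19 for Fos).

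Targets of NF-kB fell in part. Of 25 tested members, 9 fell and 0 rose (median -0.53), and among chemokines and cytokines 7 of 24 fell and 0 rose (median -0.57); Il1b and Tnf are in both lists. Ptgs2, the inducible cyclooxygenase, was at 67.5 and 55.2 CPM at hour 4 and 17.3 and 13.2 at hour 14 (-2.01 ± 0.29; adjusted p = 0.000655). Tnfaip2, a TNF-induced protein of membrane protrusions, was at 362 and 362 CPM at hour 4 and 124 and 125 at hour 14 (-1.54 ± 0.12; adjusted p = 6.22e-06). The 2 libraries of each time were almost equal for Tnfaip2. Il1b, interleukin-1 beta, gave 111 counts over both hour 4 libraries and 8 over both hour 14 libraries, 1.46 and 0.787 CPM at hour 4 and 0.11 and 0.12 at hour 14 (-3.26 ± 0.79; adjusted p = 0.0186), and lost its call without hour 4 library 1 (0.117), hour 14 library 1 (0.118) or hour 14 library 2 (0.15). Nfkbiz (-1.85 ± 0.18), Bcl3 (-1.05 ± 0.31) and Nfkb1 (-0.61 ± 0.09), proteins of the NF-kB system, the cytokine Tnf (-1.27 ± 0.25), the RNase Zc3h12a (-0.91 ± 0.18) and the costimulatory Cd83 (-0.89 ± 0.20) were the other called NF-kB members. In the second list Il1rn (-2.40 ± 0.16), the antagonist that blocks the interleukin-1 receptor, Cxcl10 (-1.55 ± 0.24), Cxcl16 (-0.59 ± 0.15) and Il18 (-0.73 ± 0.18) fell with Cxcl2. With 1 library left out 6, 8, 6 and 5 NF-kB members and 6, 6, 4 and 3 chemokines and cytokines fell. With the block 1 NF-kB member rose.

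Interferon-stimulated genes had the lowest median of the 26 plotted lists in the edgeR fit. On the log2 RPKM plus 1 scale, which shrinks changes of low genes, their median was -0.58, above that of macrophage identity (-0.76) and of chemokines and cytokines (-0.60). Type I interferon acts on the cell that makes it and its neighbours through STAT and IRF9 factors, which switch on antiviral genes through the interferon-stimulated response element. Of 38 tested members, 21 fell and 0 rose, with a median of -1.31, and 35 of the 38 had a change below 0. Isg15, a ubiquitin-like modifier, was at 2.68 and 3.19 CPM at hour 4 and 0.44 and 0.529 at hour 14 (-2.58 ± 0.48; adjusted p = 0.00373). Ifit3, an antiviral RNA-binding partner, gave only 40 counts over both hour 4 libraries and 4 over both hour 14 libraries (-2.76 ± 0.78; adjusted p = 0.0405), a ratio of 7.22 with a 95% exact counting interval of 2.61 to 27.8. It lost its call when any 1 of the 4 libraries was left out (adjusted p from 0.069 to 0.368) and when untreated library 2 was left out of the pooled spread (0.0567). Oas2, which senses double-stranded RNA, was at 21.1 and 26.7 CPM at hour 4 and 7.51 and 7.68 at hour 14 (-1.65 ± 0.18), and its relatives Oas3 (-1.33 ± 0.25), Oas1a (-1.55 ± 0.34), Oasl1 (-1.10 ± 0.18) and Oasl2 (-2.53 ± 0.57) fell too. Irf7 (-1.56 ± 0.44) and Irf9 (-0.61 ± 0.14), transcription factors of the pathway, Ifih1 (-0.92 ± 0.16), an RNA sensor, and Rsad2 (-1.68 ± 0.30), the antiviral enzyme viperin, were among the rest. The falling members were expressed at low to moderate levels, with means over the 4 libraries between 0.241 and 26.2 CPM (median 2.82). The 3 members above 0 were Irf1 (0.33), Herc6 (0.23) and Ifit2 (0.01), none of them called. With 1 library left out 18, 15, 13 and 13 members fell, and with the block 1 rose. Members of the Ifit and Oas families resemble each other in sequence, so their separate counts are uncertain.

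Promoters of the falling interferon genes often held the interferon element. The letters GAAANNGAAA, searched on both strands and with overlapping matches counted, occur in 1131 of 32851 RefSeq promoters (3.44%) that reach from 250 bases before to 50 after a start site, and in 3.8% of 9643 tested genes with such a promoter. RefSeq promoters were found for 16 of the 21 falling members, and 9 of them held the element. The list gathers interferon-stimulated genes and only its called members were counted. The share with the element therefore does not bear on their fall. The count is a description of letters and not of binding. The 4 falling genes with the largest changes that hold it before the start site are shown on GRCm38.p6, 5′ to 3′ on the gene's strand. The element is in capitals, to let a reader see the motif that 9 of the 16 hold.
Ifit3, chr19:34583377-34583446, plus strand: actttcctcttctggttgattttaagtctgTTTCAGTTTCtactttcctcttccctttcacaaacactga
Isg15, chr4:156200845-156200914, minus strand: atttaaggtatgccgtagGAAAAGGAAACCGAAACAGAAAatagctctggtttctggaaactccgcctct
Ddx60, chr8:61928027-61928086, plus strand: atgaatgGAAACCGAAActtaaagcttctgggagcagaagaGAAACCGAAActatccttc
Rsad2, chr12:26456533-26456602, minus strand: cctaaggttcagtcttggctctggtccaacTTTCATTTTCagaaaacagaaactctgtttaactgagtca
The element in capitals lies 122 bases before the start site in Ifit3 and 120 in Rsad2, both on the opposite strand. Another Ifit3 match begins 156 bases before the start site. Only its end lies in the window, in lower case. In Isg15 3 overlapping matches form 1 run beginning 78 bases before the start site, and in Ddx60 2 matches of the same letters lie in the window. Ddx60, a helicase cofactor of RNA sensing, changed by -2.09 ± 0.39 (adjusted p = 0.0037), and Rsad2 by -1.68 ± 0.30 (adjusted p = 0.00321).

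Macrophage identity genes fell in part, with 11 of 27 tested members called lower and 1 higher (median -0.75). Cd36, a scavenger and fatty acid receptor, was at 896 and 792 CPM at hour 4 and 241 and 179 at hour 14 (-2.01 ± 0.34; adjusted p = 0.00232). Clec4n, the fungal receptor dectin-2, was at 2.69 and 2 CPM at hour 4 and 0.403 and 0.0963 at hour 14 (-3.36 ± 0.57; adjusted p = 0.00219), a fall from 228 to 15 counts over the 2 libraries of each time. Tlr2, a receptor for bacterial lipoproteins, was at 734 and 881 CPM at hour 4 and 287 and 375 at hour 14 (-1.29 ± 0.19; adjusted p = 0.000868). Hours 4 and 14 were separate in all 3. The Fc receptors Fcgr3 (-1.77 ± 0.23) and Fcgr2b (-1.55 ± 0.27), the integrin Itgam (-1.33 ± 0.18), the chemokine receptor Cx3cr1 (-1.12 ± 0.22), Ly86 (-1.07 ± 0.17), Msr1 (-0.94 ± 0.16) and Lyz1 (-0.77 ± 0.15) also fell, whereas Sirpa (0.51 ± 0.11), an inhibitory receptor that binds CD47, rose. Csf1r, the receptor for M-CSF, was at 1780 and 2356 CPM at hour 4 and 1643 and 1905 at hour 14 (-0.22 ± 0.15; adjusted p = 0.445). Irf8, a transcription factor of monocytes that restrains osteoclast formation, was at 52.1 and 76.8 CPM at hour 4 and 38.4 and 60.8 at hour 14 (-0.37 ± 0.31; adjusted p = 0.561, and 0.00414 with the block). The libraries of Csf1r and of Irf8 overlapped between the times. With the block 19 members fell. The list's summed level was 6408 and 7916 RPKM at hour 4 and 4481 and 5400 at hour 14.

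DNA replication genes rose nearly throughout. Of 39 tested members, 32 rose and 0 fell, the median was 0.64, and all 39 had a change above 0. Tk1, thymidine kinase, was at 60.3 and 72.8 CPM at hour 4 and 126 and 162 at hour 14 (1.12 ± 0.21; adjusted p = 0.00437). Cdc6, which loads the replicative helicase, was at 24.9 and 32 CPM at hour 4 and 56.6 and 61 at hour 14 (1.05 ± 0.15; adjusted p = 0.000566). The higher hour 4 library was below the lower hour 14 library in both. Untreated cells at hour 0 held 128.8 and 148.5 CPM of Tk1 and 54.9 and 56.9 CPM of Cdc6, above the hour 4 libraries in both genes. Uhrf1 (1.02 ± 0.14), which keeps DNA methylation through replication, Gins1 (0.93 ± 0.16), a helicase subunit, E2f1 (0.93 ± 0.16), a transcription factor of S phase, Cdt1 (0.85 ± 0.15), a helicase loader, and Rrm2 (0.81 ± 0.09), a subunit of ribonucleotide reductase, followed in size. The helicase genes Mcm2 to Mcm7 each rose, by between 0.56 for Mcm4 and 0.77 for Mcm7. With 1 library left out 22, 23, 25 and 21 members rose. Tk1 lost its call without hour 4 library 1 (0.057) or hour 14 library 2 (0.0638).

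Promoters of the rising replication genes often held E2F letters. E2F factors bind promoters of S phase genes, and this search was added after the values were seen. Of this list too only called members were counted, so their share does not bear on the rise. The 4 forms TTTCCCGC, TTTCGCGC, TTTGCCGC and TTTGGCGC, searched on both strands, occur in 744 of 32851 RefSeq promoters (2.26%) and in 4.67% of the 9643 tested genes with a promoter. RefSeq promoters were found for 25 of the 32 rising members, and 11 of them held at least 1 form. The 4 with the largest changes that hold a form before the start site are printed in the same way. The E2F letters are in capitals, to show the motif on either strand.
Cdc6, chr11:98907983-98908050, plus strand: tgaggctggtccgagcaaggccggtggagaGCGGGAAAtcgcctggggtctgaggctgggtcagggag
Uhrf1, chr17:56304098-56304165, plus strand: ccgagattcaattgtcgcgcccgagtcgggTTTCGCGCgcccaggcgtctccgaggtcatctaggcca
Mcm7, chr5:138172011-138172078, minus strand: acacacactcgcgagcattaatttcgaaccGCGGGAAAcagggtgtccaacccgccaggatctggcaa
Mcm6, chr1:128359715-128359782, minus strand: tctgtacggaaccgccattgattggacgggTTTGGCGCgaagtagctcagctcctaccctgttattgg
The capitals begin 138 bases before the start site in Cdc6, 185 in Uhrf1, 165 in Mcm7 and 47 in Mcm6. Other lists were searched too. The E-box CACGTG was in 2 of 8 rising genes of ribosome biogenesis and nucleotide synthesis (11.6% of tested genes). The AP-1 letters TGANTCA were in 0 of 6 falling early response genes (6.29%). The NF-kB letters GGGNNTTTCC were in 0 of 6 falling NF-kB list members (2.17%) and the sterol response element in 0 of 2 rising cholesterol genes (0.207%). No match says only that these letters are not in the window.

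Mitosis genes rose in part, with 16 of 36 tested members called higher and 0 lower (median 0.38). Bub1, a spindle checkpoint kinase, was at 189 and 165 CPM at hour 4 and 311 and 297 at hour 14 (0.78 ± 0.09; adjusted p = 0.000109). Top2a, topoisomerase II alpha, was at 705 and 515 CPM at hour 4 and 1097 and 916 at hour 14 (0.72 ± 0.19; adjusted p = 0.0253). The times did not overlap in either. At hour 0 untreated cells held 225 and 215 CPM of Bub1 and 1040 and 879 CPM of Top2a. Bub1b (0.69 ± 0.10), Aurkb (0.60 ± 0.13) and Birc5 (0.57 ± 0.09) of the checkpoint and chromosome passenger machinery rose, as did Ccna2 (0.50 ± 0.11) and Ccnb1 (0.39 ± 0.09), the cyclins of S phase and mitosis. Leaving out 1 library gave 12, 5, 9 and 6 rises. Top2a was not called without hour 4 library 2 (0.205), hour 14 library 1 (0.175) or hour 14 library 2 (0.0521). Among G1 cyclins and CDK inhibitors 3 of 14 rose and 1 fell. Cdk2, the kinase of the G1 to S transition, was at 46.4 and 46 CPM at hour 4 and 69.5 and 69.9 at hour 14 (0.59 ± 0.10; adjusted p = 0.00256). In untreated cells at hour 0 Cdk2 was at 77.9 and 76.3 CPM. Rbl1 (0.56 ± 0.12) and Rbl2 (0.41 ± 0.10), relatives of the retinoblastoma protein, rose too. Leaving out 1 library gave 2, 1, 1 and 2 rises. Cdkn1a, the CDK inhibitor p21, was at 255 and 267 CPM at hour 4 and 154 and 157 at hour 14 (-0.75 ± 0.19; adjusted p = 0.0265) and lost its call when any 1 of the 4 libraries was left out (0.0921 to 0.152). Clustered histone genes moved little as a list (1 of 22 higher, 2 lower), with falls in Hist1h2bc (-1.44 ± 0.17) and Hist1h1c (-1.32 ± 0.20). Hist1h2bc was at 26.6 and 26.5 CPM at hour 14, against 6.21 and 8.57 in untreated cells at hour 0. Hist1h1c was at 101 and 122 CPM at hour 14, against 31.1 and 43.7 at hour 0. Histone counts are uncertain, since most histone messages lack a poly(A) tail and family members are alike. Of 22 p53 targets 1 was higher, the repair gene Ddb2 (0.61 ± 0.17), and 2 were lower, Cdkn1a and the kinase Plk3 (-0.77 ± 0.14). With the block 29 mitosis genes and 7 of the G1 list rose, and of the p53 targets 4 rose and 4 fell.

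Metabolic lists moved to a smaller degree. In ribosome biogenesis and nucleotide synthesis 8 of 46 tested members rose and 1 fell (median 0.16). Ppat, the first enzyme of purine synthesis, was at 104 and 99.7 CPM at hour 4 and 140 and 153 at hour 14 (0.53 ± 0.07; adjusted p = 0.000388). Paics, a later enzyme, was at 289 and 263 CPM at hour 4 and 379 and 409 at hour 14 (0.51 ± 0.11; adjusted p = 0.00731). Gart (0.48 ± 0.11) and Atic (0.29 ± 0.08) of the same route, Umps (0.43 ± 0.07) and Ctps (0.29 ± 0.08) of pyrimidine synthesis and the nucleolar Ncl (0.34 ± 0.10) and Nolc1 (0.38 ± 0.09) were the other rises, so 6 of the 8 make nucleotides. Odc1 (-0.31 ± 0.08), of polyamine synthesis, fell. Leaving out 1 library gave 3, 2, 3 and 2 rises, and Paics was not called without hour 4 library 2 (0.0855) or hour 14 library 2 (0.0908). None of 54 cytosolic ribosomal protein genes (median -0.07) and none of 47 nuclear oxidative phosphorylation genes (median 0.05) was called. With the block 6 oxidative phosphorylation genes rose, a share no larger than that of all tested genes with the block. It also gave rises in 19 genes of ribosome biogenesis and nucleotide synthesis, 14 of cholesterol synthesis and 11 of glycolysis. Cholesterol synthesis genes rose in 4 of 24 cases and fell in 0 (median 0.27). Insig1, the sterol sensor that retains SREBP, was at 37.8 and 43 CPM at hour 4 and 60.1 and 92.5 at hour 14 (0.92 ± 0.24; adjusted p = 0.0269). Stard4, a sterol carrier, was at 60.1 and 51.7 CPM at hour 4 and 87.8 and 98.5 at hour 14 (0.74 ± 0.10; adjusted p = 0.000438). Untreated cells at hour 0 held 75.7 and 87.7 CPM of Insig1 and 102 and 105 CPM of Stard4. Fdft1 (0.62 ± 0.15) and Sc5d (0.53 ± 0.13), enzymes of the route, were the others. Leaving out 1 library gave 1, 1, 3 and 1 rises, and Insig1 was not called without hour 4 library 1 (0.169), hour 4 library 2 (0.0903) or hour 14 library 2 (0.321). Among cholesterol efflux and LXR targets 4 of 14 rose, Scd2, Abcg1, Fasn (0.58 ± 0.12) and Acaca (0.46 ± 0.08), and the lipid transfer protein Pltp (-0.70 ± 0.20) fell. In glycolysis 4 of 22 rose, and with 1 library left out 1, 2, 2 and 1. Pdk1, which holds pyruvate back from the mitochondria, was at 55.3 and 48.7 CPM at hour 4 and 85.7 and 88.9 at hour 14 (0.75 ± 0.13; adjusted p = 0.0027). The hexokinase Hk3 fell (-0.79 ± 0.21), a call lost without hour 4 library 2 (0.245), hour 14 library 1 (0.153) or hour 14 library 2 (0.145).

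Stress and folding genes moved in opposite directions. Chaperones and ER folding genes rose in 6 of 31 cases and fell in 0 (median 0.29). Pdia4, which forms disulphide bonds in the endoplasmic reticulum, was at 182 and 256 CPM at hour 4 and 383 and 442 at hour 14 (0.92 ± 0.20; adjusted p = 0.0109). Hsp90b1, a chaperone of the same compartment, was at 1478 and 1975 CPM at hour 4 and 2514 and 3033 at hour 14 (0.68 ± 0.18; adjusted p = 0.0289). Leaving out 1 library gave 1, 3, 1 and 0 rises. Pdia4 lost its call without hour 4 library 1 (0.12) or hour 14 library 2 (0.1), and Hsp90b1 without hour 4 library 1 (0.241), hour 14 library 1 (0.0538) or hour 14 library 2 (0.242). NRF2 antioxidant genes fell in 5 of 23 cases and rose in 0 (median -0.26). Slc7a11, the cystine importer, was at 70.5 and 52.2 CPM at hour 4 and 17.5 and 16.8 at hour 14 (-1.84 ± 0.25; adjusted p = 0.000422). Srxn1, which repairs peroxiredoxins, was at 256 and 213 CPM at hour 4 and 100.1 and 85.2 at hour 14 (-1.34 ± 0.14; adjusted p = 7.43e-05). Heme oxygenase Hmox1 (-1.22 ± 0.18), thioredoxin reductase Txnrd1 (-0.57 ± 0.15) and ferritin heavy chain Fth1 (-0.37 ± 0.10) were the others. Of ATF4 targets and amino acid supply genes 6 of 28 fell and 0 rose (median -0.34), Slc7a3, Trib3, Atf5, Nars and Aars beside Slc7a11, which is in both lists. Slc7a3, a cationic amino acid carrier, gave 57 counts at hour 4 and 8 at hour 14 (-2.42 ± 0.57) and was not called without hour 4 library 2 (0.0938) or hour 14 library 1 (0.133). With 1 library left out 3, 5, 3 and 3 NRF2 genes and 4, 2, 1 and 3 ATF4 genes fell. With the block 16 chaperone and folding genes rose, 11 NRF2 genes fell and 1 rose, and 12 ATF4 genes fell and 2 rose.

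Medians of the lysosome, BCL2 family, antigen presentation, oxidase and Toll-like receptor and signalling feedback lists lay between -0.17 and -0.02. In the lysosome list 4 of 41 fell (3, 2, 2 and 2 with 1 library left out) and 1 rose. Gpnmb, a glycoprotein of phagocytes and osteoclasts, was at 186 and 323 CPM at hour 4 and 58.1 and 85 at hour 14 (-1.83 ± 0.31; adjusted p = 0.00238). Sqstm1, the autophagy receptor p62, was at 766 and 741 CPM at hour 4 and 289.8 and 282 at hour 14 (-1.40 ± 0.10; adjusted p = 4.87e-06). Replicates of Sqstm1 were close, and library 2 held more Gpnmb than library 1 at both times. In the BCL2 family the survival genes Bcl2l1 (-0.80 ± 0.13) and Mcl1 (-0.39 ± 0.09) fell, and Bid (0.71 ± 0.10), which promotes apoptosis, rose, of 15 tested. Of 18 genes of antigen presentation 1 rose, Cd74, the invariant chain of MHC class II. It was at 60.2 and 90.9 CPM at hour 4 and 142 and 184 at hour 14 (1.11 ± 0.27; adjusted p = 0.0187) and lost its call without hour 4 library 1 (0.175) or hour 14 library 2 (0.169). Among the NADPH oxidase and Toll-like receptors 4 of 20 fell (3, 3, 2 and 3 with 1 library left out) and 1 rose. Tlr13, a receptor for bacterial ribosomal RNA, was at 18.8 and 18.5 CPM at hour 4 and 6.59 and 8.26 at hour 14 (-1.32 ± 0.26; adjusted p = 0.00504, and 0.0658 without hour 14 library 1). Of 22 SOCS and signalling feedback genes 4 fell, Rgs16, Dusp5, Socs3 (-1.42 ± 0.33) and Dusp1, and 0 rose, with 4, 4, 3 and 2 falls when 1 library was left out. The markers of other cells held 1 fall each. Runx2, a transcription factor of osteoblasts, was at 7 and 3.41 CPM at hour 4 and 1.1 and 0.914 at hour 14 (-2.38 ± 0.65; adjusted p = 0.0359). Siglech, a lectin of plasmacytoid dendritic cells, had 97 counts at hour 4 and 1 at hour 14, a ratio of 70.0 with a 95% exact counting interval of 12.3 to 2794. With the block the lysosome list had 9 falls and 6 rises, the BCL2 family 5 and 3, and the oxidase and Toll-like receptor list 7 and 2. It also gave 2 falls in antigen presentation, 2 among markers of other myeloid cells and 3 rises in the signalling feedback list. The rises in the lysosome and feedback lists and the falls in antigen presentation were near the shares of all tested genes with the block. Runx2 was not called without hour 4 library 1 (0.223), hour 14 library 1 (0.15) or hour 14 library 2 (0.231).

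The same interval in cells given RANKL alone was used to ask where I-BET altered the RANKL course. There 1286 genes rose (8.02% of tested genes) and 1558 fell (9.71%), and with the block 3198 rose and 3008 fell. The RANKL course and the course under both agents share no libraries. Of the 739 rises under both agents, 390 were also rises under RANKL alone, which is 52.8% of the former and 30.3% of the latter. Of the 769 falls 405 were shared, 52.7% and 26%. A further 42 rises were falls under RANKL alone, and 20 falls were rises there. Across the 9391 genes with a mean of at least 5 CPM, Pearson's r between the 2 courses was 0.528, and across all 16042 tested genes it was 0.339. This r is across genes, which are not independent replicates, and all libraries share the hour.

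The difference between the courses, the change under both agents minus the change under RANKL alone, was called in 575 genes, 395 positive (2.46% of tested genes) and 180 negative (1.12%). With the block it was positive in 1395 and negative in 1190 of all tested genes, the background for list counts of this difference with the block. Osteoclast genes were called on the negative side in 5 of 24 tested members and on the positive side in 0. Acp5 was at 34.5 and 22.6 CPM at hour 4 and 111 and 95.3 at hour 14 under RANKL alone, a rise, against the fall under both agents, and the difference was -4.14 ± 0.61 (adjusted p = 0.00184). For Ctsk RANKL alone gave 15.8 and 18.2 CPM at hour 4 and 30.1 and 26.7 at hour 14, and the difference was -2.49 ± 0.24 (adjusted p = 0.000126). Atp6v0d2 stood at 35.1 and 18.4 CPM at hour 4 and 111 and 58 at hour 14 under RANKL alone (not called, adjusted p = 0.0751; difference -4.25 ± 0.91, adjusted p = 0.02). Thus the 2 hour 14 libraries were the higher in these 3 genes under RANKL alone and the lower under both agents. Ocstamp (-1.93 ± 0.41; adjusted p = 0.0203) and Jdp2 (-1.69 ± 0.25; adjusted p = 0.00194) were the others. The count was 3 without hour 14 library 2 of both agents, hour 14 library 1 of RANKL or hour 4 library 2 of RANKL, and 10 with the block. Atp6v0d2 lost its difference call without any 1 of these 3 libraries or hour 4 library 1 of both agents (adjusted p from 0.0722 to 0.124), and Ocstamp without 6 of the 8 libraries (0.0532 to 0.13). Outside the lists the most negative differences among genes with a mean of at least 5 CPM were those of Il13ra2, a decoy receptor for interleukin-13, and of Bdh2, a dehydrogenase (-4.89 ± 0.58; adjusted p = 0.000521). Il13ra2 gave 101 counts at hour 4 and 0 at hour 14 under both agents, so that it was at least 24.3-fold lower against a floor of 3 counts over the group, with a 95% exact counting interval that begins at 19.4-fold, and RANKL alone kept it at 10.5 and 14.8 CPM at hour 4 and 8.36 and 6.85 at hour 14. Bdh2 fell from 6.87 and 4.43 CPM to 0.549 and 0.289 under both agents and was at 19.7 and 17.1 CPM at hour 4 and 39.2 and 37.9 at hour 14 under RANKL alone.

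**Figure D3:**
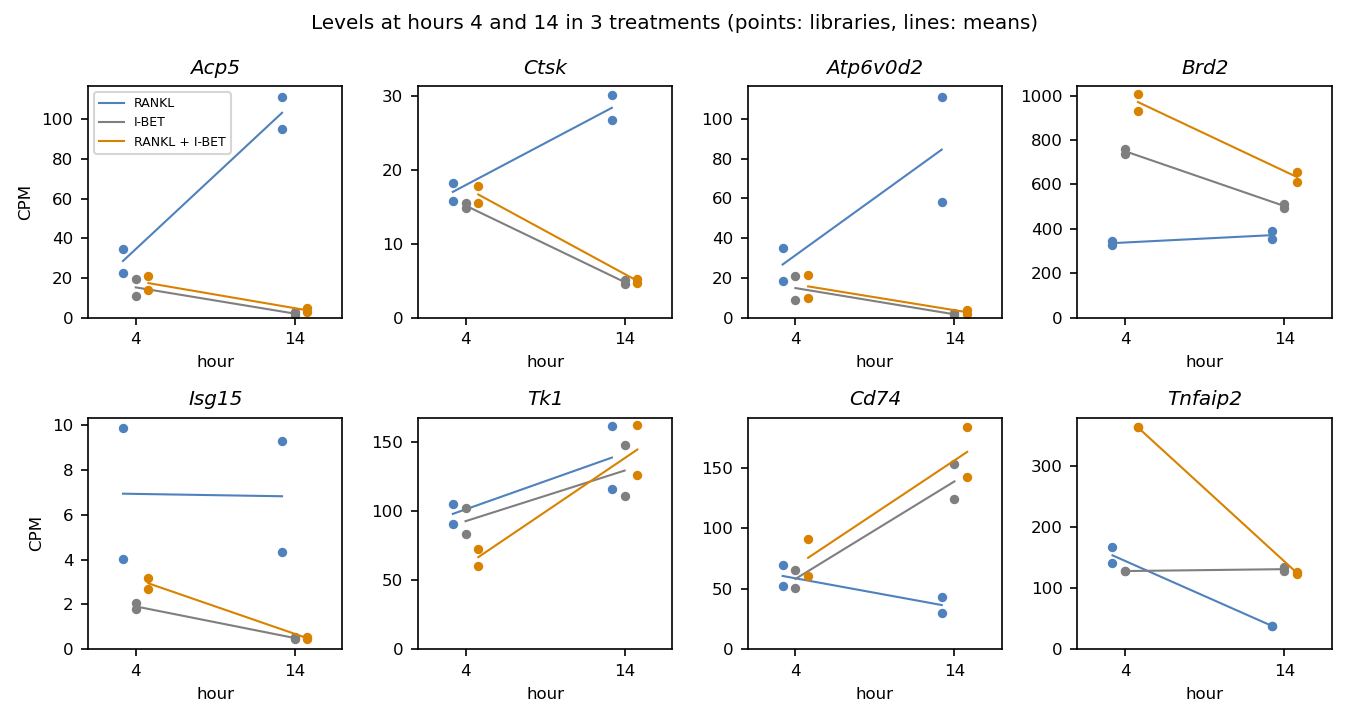
CPM of 8 genes at hours 4 and 14 in cells given RANKL (blue), I-BET (grey) or both (orange); points are libraries, lines join the means of 2 libraries and each vertical axis starts at 0. Acp5, Ctsk and Atp6v0d2 lie higher at hour 14 under RANKL alone and lower in both treatments with I-BET; Tnfaip2 falls from 362 and 362 CPM to 124 and 125 under both agents and stays between 127 and 134 under I-BET alone.

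Macrophage genes were called on the positive side of the difference in 5 of 27 tested members and on the negative side in 0. These included Cd86 (3.35 ± 0.64), a costimulatory ligand, Irf8 (1.99 ± 0.44), Cx3cr1 (1.78 ± 0.31) and Sirpa (1.37 ± 0.15). Cd86 was low, at 0.211 and 0.24 RPKM at hour 4 and 0.212 and 0.165 at hour 14 under both agents. Under RANKL alone 18 of the 27 members fell, with a median of -1.12 against -0.75 under both agents. A positive difference can thus be a smaller fall, as for Cx3cr1, which was called lower under both agents. Irf8 was at 37.1 and 52.6 CPM at hour 4 and 6.59 and 10.8 at hour 14 under RANKL alone, where both hour 14 libraries were far below both hour 4 libraries, and its levels under both agents overlapped. The call of Irf8 was lost without 4 of the 8 libraries (0.0957 to 0.139), hour 4 library 1 and hour 14 library 2 of both agents and hour 4 library 2 and hour 14 library 1 of RANKL. Of NADPH oxidase and Toll-like receptor genes, of which 11 of 20 fell under RANKL alone and 4 under both agents, 5 were positive and 0 negative. The positive members included Cybb (1.64 ± 0.34), the catalytic oxidase subunit, Rac2, Tlr9 and Tlr13. This count fell to 0 without hour 14 library 2 of both agents or hour 14 library 1 of RANKL and to between 1 and 3 without any other 1 of the 8. With the block 9 members of this list were positive, and of the macrophage list 10 were positive and 1 negative. Cd74 had a difference of 1.84 ± 0.38 (adjusted p = 0.017), with 51.8 and 69.2 CPM at hour 4 and 30.2 and 42.7 at hour 14 under RANKL alone. Cd74 lost this call in the same 4 omissions as Irf8 (0.0695 to 0.0882), and Tlr13 lost it without any 1 of the 8 (0.0529 to 0.163). Among genes with a mean of at least 5 CPM the 4 most positive differences were those of Ptgs1, the constitutive cyclooxygenase (3.96 ± 0.32; adjusted p = 6.43e-05), Ighm, the immunoglobulin mu chain (3.26 ± 0.38; 0.000505), Alox5, the leukotriene-forming lipoxygenase (3.14 ± 0.45; 0.00136), and Ltb (3.12 ± 0.57; 0.00752). Ptgs1 was at 16.8 and 18.8 CPM at hour 4 and 13.6 and 15.9 at hour 14 under both agents and at 17 and 16.3 CPM at hour 4 and 0.578 and 1.19 at hour 14 under RANKL alone. Alox5 was at 27.4 and 36.2 CPM at hour 4 and 24.1 and 38.3 at hour 14 under both agents and at 25.5 and 31.5 CPM at hour 4 and 2.73 and 3.65 at hour 14 under RANKL alone. In both genes the low libraries were the 2 of RANKL at hour 14. Ighm was at 49.5 and 68.3 CPM at hour 4 and 93.3 and 119 at hour 14 under both agents. Its own change there was not called (0.85 ± 0.26; adjusted p = 0.0572). Among other settings it was called with the block (0.000282), DESeq2 (0.00924) and RLE size factors (0.0466). Under RANKL alone Ighm was at 35.7 and 43.1 CPM at hour 4 and 5.25 and 9.67 at hour 14.

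Interferon genes were called on the negative side in 9 of 38 tested members and on the positive side in 1, Ifit2 (1.08 ± 0.26). Isg15 was at 4.01 and 9.87 CPM at hour 4 and 4.34 and 9.31 at hour 14 under RANKL alone, where library 2 held more than library 1 at both times and the times overlapped, and its difference was -2.56 ± 0.61 (adjusted p = 0.036). Rtp4 (-2.88 ± 0.59), Ifi44 (-2.45 ± 0.37), Zbp1 (-2.27 ± 0.52), Oas1a, Oas2, Oas3, Gbp3 and Xaf1 were the other negative members. Of the libraries with both agents, leaving out 1 gave 6, 3, 4 and 2 negative members in the order above. Leaving out 1 RANKL library gave 4, 13, 6 and 3 in that order, and the block gave 20, with 2 positive. Isg15 lost its call without any 1 of the libraries with both agents and without hour 4 library 1 or hour 14 library 2 of RANKL (0.077 to 0.139). Brd2 was at 328 and 343 CPM at hour 4 and 354 and 389 at hour 14 under RANKL alone, where its change was not called, and the difference was -0.76 ± 0.11 (adjusted p = 0.00175). Myc, at 0.45 under RANKL alone, differed by -2.52 ± 0.50 (adjusted p = 0.0135), a call lost without hour 4 library 1 or hour 14 library 2 of both agents or hour 4 library 2 of RANKL (0.0518 to 0.0872). No member of the DNA replication (28 of 39 higher under RANKL alone) or mitosis (21 of 36 higher) lists was called for the difference. In ribosome biogenesis and nucleotide synthesis 31 of 46 members rose under RANKL alone and 8 under both agents, and the difference itself was called in 1 member, Mybbp1a (-0.44 ± 0.11). With the block the difference was called negative in 25 members of this list and in 4 mitosis genes, and positive in 3 replication genes. The 3 replication genes were no larger a share than that of all tested genes with the block. With the block 32 mitosis genes rose under RANKL alone. With any 1 RANKL library left out, the counts under RANKL alone were 18 to 24 for DNA replication, 10 to 14 for mitosis and 15 to 23 for ribosome biogenesis and nucleotide synthesis.

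**Figure D4:**
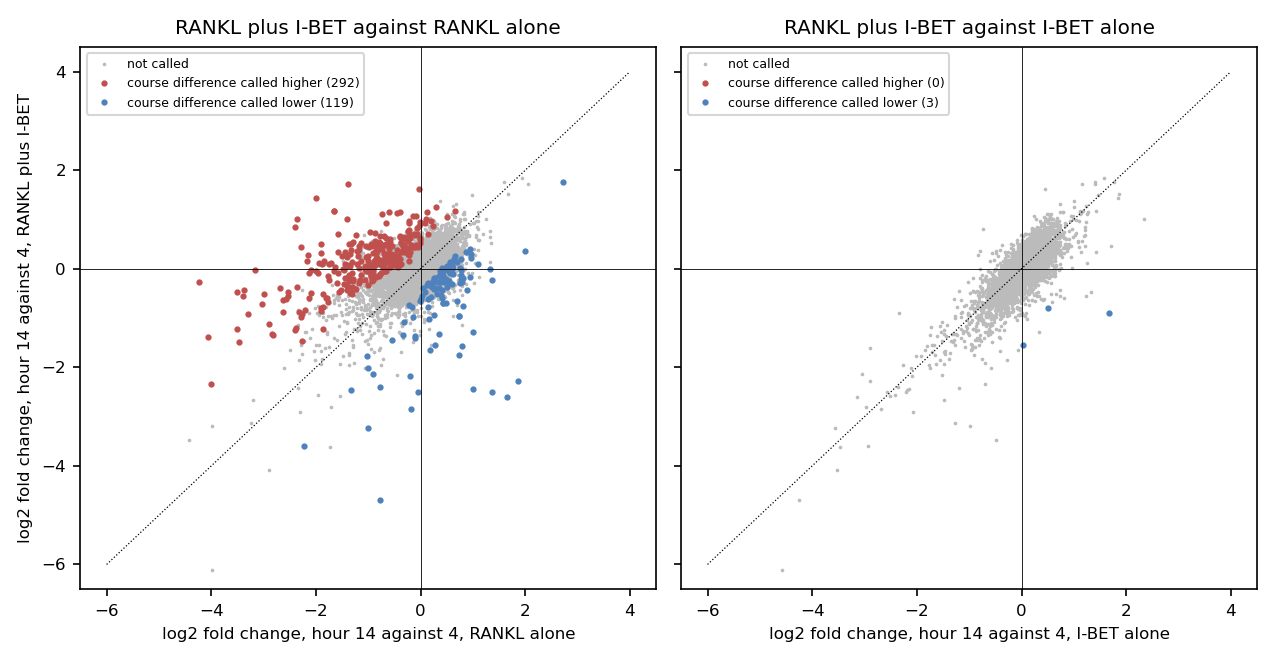
Log2 fold change of hour 14 against hour 4 under RANKL plus I-BET (vertical) against that under RANKL alone (left, horizontal) and I-BET alone (right, horizontal) for 9391 genes with a mean of at least 5 CPM; red and blue mark genes whose course difference was called positive or negative and the dotted line marks equal change. On the left 292 shown genes are red and 119 blue; on the right 0 are red and 3 blue.

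The course in cells given I-BET alone was used to ask what RANKL added in the presence of the drug. Under I-BET alone 418 genes rose (2.61% of tested genes) and 434 fell (2.71%), and with the block 1848 rose and 1487 fell. Of the rises under both agents 282 were shared, which is 38.2% of them and 67.5% of those under I-BET alone, and of the falls 316 were shared, 41.1% and 72.8%. No rise under both agents was a fall under I-BET alone, and 2 falls were rises there. Of the 739 rises 98.4% and of the 769 falls 96.4% had the same sign under I-BET alone, called or not, against 81.2% and 86.6% under RANKL alone. Pearson's r was 0.816 across the 9391 genes and 0.602 across all tested genes, again without a test. Whether the course under both agents is nearer to that of I-BET than to that of RANKL was not tested.

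The difference between the courses under both agents and under I-BET alone was called in 3 genes (0.0187% of tested genes) by edgeR, all negative. An unadjusted edgeR p under 0.05 was found in 646 of 16042 tested genes. That is a smaller share than the 0.05 that would pass if no gene differed. DESeq2 called 27 positive and 32 negative, and the block gave 90 and 101. Tnfaip2 was at 128 and 128 CPM at hour 4 and 134 and 127 at hour 14 under I-BET alone, almost constant, and the difference was -1.58 ± 0.16 (adjusted p = 0.00292). Cd83, a costimulatory molecule of activated antigen-presenting cells, was at 31.7 and 29.2 CPM at hour 4 and 14.2 and 18.5 at hour 14 under both agents and at 10.7 and 10.9 CPM at hour 4 and 32.6 and 36.4 at hour 14 under I-BET alone, so it fell in the first and rose in the second (difference -2.57 ± 0.29; adjusted p = 0.00292). Kctd12, a subunit of GABA-B receptors, was at 24.1 and 22.7 CPM at hour 4 and 13.6 and 13.3 at hour 14 under both agents and at 12.3 and 12.8 CPM at hour 4 and 18.1 and 17.6 at hour 14 under I-BET alone (difference -1.31 ± 0.15; adjusted p = 0.00292). All 3 were higher under both agents than under I-BET alone at hour 4, and all 3 fell under RANKL alone as well (-2.01 for Tnfaip2, -1.40 for Cd83 and -1.91 for Kctd12). The fall of Cd83 under both agents was not called without hour 4 library 1 (0.0798) or hour 14 library 1 (0.142).

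Lists that moved under both agents also differed in how many members were called under I-BET alone, with no list test of these differences. Of the interferon list 16 of 38 fell under I-BET alone and 7 under RANKL alone, and of the osteoclast list 7 of 24 fell under I-BET alone while 6 rose and 0 fell under RANKL alone. With any 1 library of the course left out, the interferon count was 6 to 9 under I-BET alone and 3 to 8 under RANKL alone, and the osteoclast count was 3 to 6 falls and 2 to 4 rises. With the block 27 interferon genes fell under I-BET alone and 11 under RANKL alone, 11 osteoclast genes fell under I-BET alone, and 2 fell under RANKL alone. Of NF-kB targets 0 of 25 fell under I-BET alone and 12 under RANKL alone, and 2 members, Cd83 and Tnfaip2, were called for the difference from I-BET (4 with the block, which also gave 1 fall under I-BET alone). Cxcl2 was at 1.11 and 1.27 CPM at hour 4 and 0.961 and 0.727 at hour 14 under I-BET alone and Irg1 at 2.95 and 1.97 CPM at hour 4 and 1.54 and 0.908 at hour 14; their differences from the I-BET course (-3 ± 0.66 and -2.21 ± 0.46) were not called (adjusted p = 0.349 and 0.246) but were called with the block (0.0369 and 0.016). DNA replication genes were called higher in 3 of 39 cases under I-BET alone (27 with the block, and 0 to 2 with 1 I-BET library left out) and mitosis genes in 2 of 36 (5 with the block, which also gave 3 falls). The difference from I-BET was called in 0 replication genes and, with the block, in 17, all positive; the block also gave 3 positive mitosis genes. Tk1 was at 83.2 and 102 CPM at hour 4 and 111 and 148 at hour 14 under I-BET alone and Cdc6 at 32.9 and 44.1 CPM at hour 4 and 50.1 and 53.5 at hour 14. At hour 4 both genes were lower in the 2 libraries with both agents than in those with either agent alone.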

How the data were processed

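RNA of RAW264.7 cells was sequenced in 20 libraries in 10 groups of 2. Per the submitters' processing notes, FastQC, STAR 2.5.3a and DESeq2 1.16.1 were used with GRCm38 (mm10). The authors deposited raw read counts per gene and RPKM; no source used here names the counting tool or strand setting, which leaves overlapping and antisense genes uncertain. The deposited table gave symbols for 42745 of its 50686 genes, and GENCODE M21 gave 7915 more.

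Counts were fitted with edgeR 4.0.16 (R 4.3.3) using TMM factors, filterByExpr by group (16042 genes), 1 mean per group over all 20 libraries (10 residual degrees of freedom) and robust quasi-likelihood F tests, with Benjamini-Hochberg adjustment over all tested genes in each of 5 comparisons. Course differences are interaction contrasts. Groups came from the sample titles. Gene lists, described by counts and medians without a test, and the named genes were chosen with earlier results of these data known. Named are 15 fixed genes, the 8 largest called rises and 8 largest falls (mean CPM at least 5, groups not overlapping), up to 2 called members of each list, and the 4 most positive and 4 most negative called genes of each course difference; further list members were named after their values were seen. Some genes that these rules name are not reported here. Levels between genes were compared in the deposited RPKM. The CPM range given for the falling interferon genes and the CPM cut-offs are not scaled to gene length. Depth was 19051780 to 62313792 counts, and counting intervals (95%, exact) and floors (3 counts) cover counting error only.

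The number in the sample titles was checked for pairing: libraries of the same number deviated together in all 45 pairs of groups (r 0.221 to 0.596, and 0.493 between these 2 groups). The number entered as a block only as an alternative, with a biological coefficient of variation of 0.0751 against 0.162. Other alternatives were RLE size factors, DESeq2 1.42.0, no filter, a filter of 1 CPM reached in 4 or more libraries, a fit with robust estimation off, only the libraries compared, limma 3.58.1 on log2 RPKM with 1 or 0.1 added (1 RPKM reached in 2 or more libraries) and each library omitted in turn; the omission of untreated library 2 from the pooled spread, in which 10 genes held 14.6% of the counts, and the E2F search were chosen after the data were seen. The fits were tested on simulated data. Promoters are RefSeq sequences.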

Additional observations from a re-analysis of the deposited data

Results flagged for a closer look

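The course from hour 4 to hour 14 under both agents was tested against the courses under either agent alone, and the values below are log2 differences that passed the edgeR test of the difference itself. Against RANKL alone 575 genes differed and against I-BET alone 3.

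Lower under both agents than under RANKL alone were the changes of the osteoclast genes Acp5 (-4.14), Atp6v0d2 (-4.25), Ctsk (-2.49) and Ocstamp (-1.93), and those of Myc (-2.52) and Brd2 (-0.76). The same held for Il13ra2 (-7.86), Bdh2 (-4.89), Rgs16 (-3.92), Olfml3 (-1.37) and Acy1 (-0.96). Higher were the changes of Ptgs1 (3.96), Ighm (3.26), Alox5 (3.14), Ltb (3.12), Irf8 (1.99), Vsig10 (1.66) and Kctd12 (1.10). Against I-BET alone the changes of Cd83 (-2.57), Tnfaip2 (-1.58) and Kctd12 (-1.31) were lower.

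The value for Il13ra2 comes from a gene with 0 counts at hour 14 under both agents and is no bound. Calls against RANKL were lost with 1 of the 8 libraries left out in 8 of these genes. All 8 lost them without hour 14 library 2 of both agents: Acy1, Atp6v0d2, Irf8, Myc, Ocstamp, Olfml3, Rgs16 and Vsig10. Without hour 4 library 1 of both agents Atp6v0d2, Irf8, Myc, Olfml3, Rgs16 and Vsig10 lost theirs, and without hour 4 library 2 of RANKL the same 6 genes with Acy1 and Ocstamp did. Without hour 14 library 1 of RANKL this held for Atp6v0d2, Irf8, Ocstamp, Olfml3 and Vsig10, without its hour 14 library 2 for Acy1 and Olfml3, and without its hour 4 library 1 for Acy1, Ocstamp and Olfml3. Without hour 4 library 2 of both agents Acy1, Ocstamp and Olfml3 were lost, and without hour 14 library 1 of both agents Acy1 and Ocstamp. The highest adjusted p among these was 0.249, for Olfml3, which also lost its call without untreated library 2 in the pooled spread (0.0601).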

How the results depend on the processing

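Every named gene called in the comparison under both agents (59 of 67) kept its direction in every alternative and its call with the block, RLE size factors and DESeq2; 21 lost their call with 1 library left out and 31 when only the 4 libraries were fitted. Under both agents DESeq2 added calls for Ighm, Mmp9 and Nfatc1, and edgeR with no low-count filter added these with Hexim1 and Tnfrsf11a. The no-filter calls may rest on that setting's estimate of the spread, which was not tested. Over the 75 named genes the block took away no call. It added 6 calls under both agents, given in the report, 13 in the difference from RANKL (Angptl2, Cdk2, Clec4n, Dock9, Gpnmb, Igf1, Nfatc1, Olr1, Slc7a3, Sqstm1, Srxn1, Tk1 and Tnfaip2) and 11 in the difference from I-BET (Alox5, Bcl2l1, Bub1, Cdc6, Cxcl2, Irf8, Irg1, Runx2, Sqstm1, Tk1 and Vsig10). Only the difference from RANKL reversed, on the log2 RPKM plus 1 scale, for Il13ra2 (0.078) and Olfml3 (0.36), where the added 1 shrinks low values; the cause was not tested.

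Counts of called genes moved as follows, higher before lower. Under both agents DESeq2 gave 1156 higher, only the 4 libraries gave 39 and 150, the replicate block 2220 and 1976, and 1 library left out 277 to 380 and 316 to 445. For the difference from RANKL these were 729 and 332 (DESeq2), 134 and 43 (only its libraries), 1395 and 1190 (block), 119 lower without untreated library 2, and 170 to 264 and 64 to 95 with 1 library left out. For the difference from I-BET a CPM filter gave 1 higher, DESeq2 27 and 32, no filter 10 and 41, the block 90 and 101, RPKM plus 1 gave 7 lower, and 1 library left out 0 higher and 3 to 4 lower. Under RANKL alone RPKM plus 0.1 gave 854 higher, only its libraries 191 and 687, the block 3198 and 3008, and 1 library left out 575 to 840 and 914 to 1081. Under I-BET alone DESeq2 gave 716 higher, RPKM plus 0.1 and plus 1 gave 257 and 267 higher, only its libraries 30 and 79, the block 1848 and 1487, and 1 library left out 130 to 136 and 134 to 222. The cause of these shifts was not tested, except that fewer libraries leave fewer residual degrees of freedom.

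A fit with 1 library left out assumes that the lone library of its group varies like the other groups, and it kept 38.3% to 51.3% of the 1508 calls with 0 changes of direction. Genes with few counts, such as Ifit3, Il1b, Mmp9 and Slc7a3, are limited by depth.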
